A study of Zea mays with 12 samples.

Results

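The response to abscisic acid (ABA) was examined in maize seedlings that lack MOP1, by comparing 3 mop1-1 libraries taken after 1 h in medium with ABA (mop1-1 ABA) with 3 mop1-1 libraries taken after 1 h in the same medium without it (mop1-1 MS). These are 6 of the 12 libraries of the experiment, chosen by their genotype and treatment labels. The other 6 come from homozygous wildtype siblings treated in parallel (WT ABA and WT MS, 3 libraries each) and are used only where the mutant values are set beside them. All plants were V3 seedlings of a line in which mop1-1 had been introgressed into B73, grown in a greenhouse and taken from the soil. Their rinsed roots stood in liquid Murashige and Skoog (MS) medium, with 50 µM (+/-)-ABA in the ABA groups. Polyadenylated RNA was then sequenced from the shoots. The plants without ABA were therefore also lifted, rinsed and submerged, and no group was left in soil.

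ABA is the plant hormone of drought, salt and cold responses. It binds receptors of the PYR/PYL family, which then hold clade A type 2C protein phosphatases (PP2Cs), and this releases SnRK2 kinases to phosphorylate transcription factors that act on ABA-responsive promoters. MOP1 is an RNA-dependent RNA polymerase of the pathway that makes small interfering RNAs and directs DNA methylation, best known in maize for paramutation and for silencing of transposons. The comparison addresses how gene expression answers ABA early on when this pathway is impaired.

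The 38444 features of the deposited table comprised 28566 annotated genes, 104 microRNA genes and 9774 assembled loci, which are transcripts that the authors' assembly added and that carry no gene name. Counts summed to between 38295994 (mop1-1 ABA replicate 2) and 64564824 (mop1-1 MS replicate 2) in the 6 mutant libraries. Levels are given in CPM, counts scaled to the library total after its adjustment for composition by TMM factors. They depend on transcript length, and so do the ranks, classes and sums of level given below. A feature was tested when it reached 0.58 CPM in at least 3 of the 12 libraries, which 26401 did. Of these, 283 genes and 29 microRNA genes carry a name in the sources used here. The shoot label was checked against photosynthesis genes: psbs1 (a photosystem II subunit of photoprotection) stood between 1490 and 2065 CPM, and rca1 (rubisco activase) between 363 and 492 CPM, over the 6 mutant libraries. The list of root markers set for that purpose held no named gene that was tested, so the absence of root tissue was not checked.

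The WT MS libraries stood apart from each other in the genes described here. Replicate 1 had the highest values of the 12 libraries and replicate 3 the lowest WT MS values for most of the features called lower in the mutant, as detailed with those features. The 6 mutant libraries do not include them, but they enter the estimate of the spread in any fit over all 12.

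In mop1-1, 1 h of ABA left the distribution of expression close to that of MS. With the quasi-likelihood (QL) test of edgeR over the 12 libraries, 0 of 26401 features (0% of those tested) were differentially expressed, a call that needed a log2 fold change (log2FC) of 0.95 or more in size beside an adjusted p no higher than 0.05. Since whole shoots were sequenced, fewer cells of a type and less RNA per cell cannot be told apart in any of these values. By the same test, 486 features had a higher and 525 a lower level with ABA at an unadjusted p under 0.05. The log2FC was positive for 13168 features and negative for 13217, with a median of 0.00, and ran from -0.64 at the 5th to 0.54 at the 95th percentile. Past 0.95 in size, 359 log2FC were positive and 619 negative. All 3 ABA libraries lay below all 3 MS libraries for 1325 features (5.02%) and above them for 1239 (4.69%). In WT the corresponding counts were 1560 (5.91%) and 1580 (5.98%). There are 20 ways to split 6 libraries 3 against 3, so without any effect about 1 in 20 features would lie apart in each direction. The shares in mop1-1 were close to that. A lack of overlap in a single gene therefore describes its values and is not by itself a sign of an ABA effect.

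Other tests made calls that the QL test did not, and most of them were decreases. DESeq2 over 12 libraries called 6 features lower (0.0227%) and 7 higher (0.0265%). The exact test of edgeR called 1 feature over 12 libraries, Zm00001d048063, which was lower with ABA. Restricted to the 6 mutant libraries, so that the spread came from them alone, the exact test called 58 features lower (0.22%) and 8 higher (0.0303%), and DESeq2 called 67 lower and 12 higher. The QL test on these 6 libraries called 0, its smallest adjusted p being 0.0532, while 724 features were lower and 497 higher at an unadjusted p under 0.05. These restricted fits were added after the data had been seen. In the following, "called" refers to the exact test of edgeR on the 6 libraries unless another test is named.

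**Figure D1:**
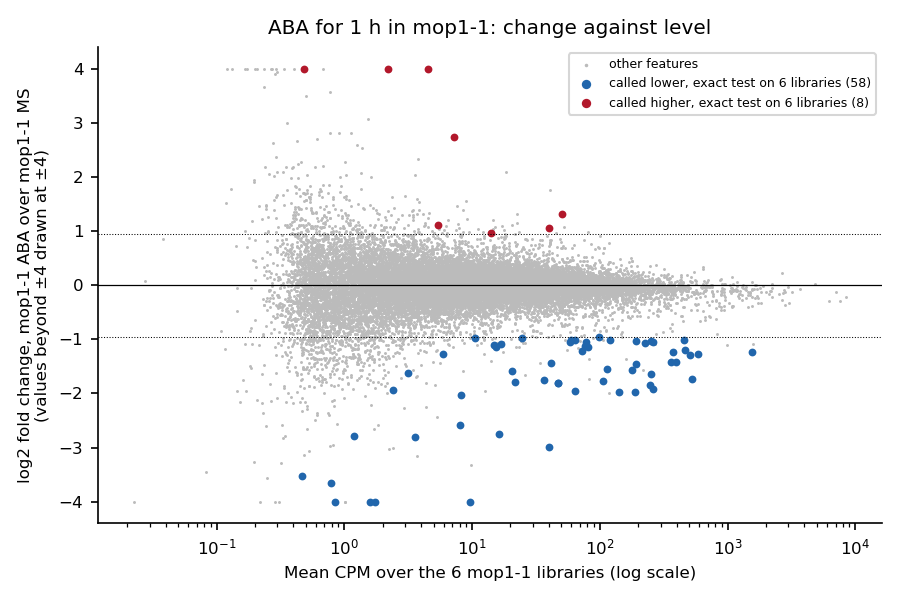
Each point is a tested feature, placed by its mean CPM over the 6 mop1-1 libraries (log axis) and its log2 fold change of mop1-1 ABA over mop1-1 MS, with dotted lines at 0.95 in either direction and values beyond 4 drawn at 4. The 58 features called lower by the exact test on the 6 libraries spread up to the most abundant genes, and the 8 called higher lie below 100 CPM.

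The root-mean-square difference of log2 CPM, over features of at least 1 CPM, was 0.592 to 0.71 between an MS and an ABA library of mop1-1, with a median of 0.643 over 9 pairs. Within mop1-1 MS the 3 pairs gave 0.643 to 0.675, and within mop1-1 ABA 0.586 to 0.677. A mutant and a WT library of the same treatment differed by more, with medians of 0.83 under MS and 0.82 under ABA. The common biological coefficient of variation (BCV, the replicate-to-replicate variation beyond counting) was 0.288 in mop1-1 ABA and 0.307 in mop1-1 MS, against 0.259 in WT ABA and 0.347 in WT MS. The median SD of a feature's log2 CPM was 0.23 in both mutant groups. It fell from 0.67 (ABA) and 0.71 (MS) in features under 1 CPM to 0.16 and 0.17 in features of 10 to 100 CPM.

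**Figure D2:**
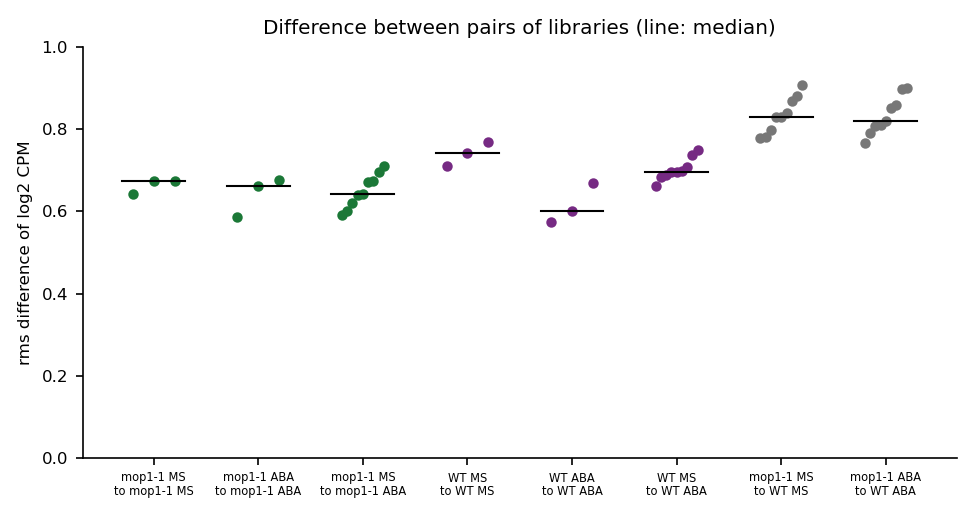
Each point is the root-mean-square difference of log2 CPM between a pair of libraries, within or between the groups named on the horizontal axis, and the line is the median. The median of the MS to ABA pairs of mop1-1 (0.643) lies in the range of the pairs within its groups (0.586 to 0.677), while the pairs themselves reach 0.71, with 2 groups of mutant to WT pairs above them.

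The direction of the difference varied with how abundant a gene was. Of the 85 features with a mean of 1000 CPM or more in mop1-1, 75 (88.2%) had a negative log2FC, with a median of -0.11. Of the 1537 features between 100 and 1000 CPM, 964 (62.7%) were negative, with a median of -0.04. In the lower classes the negative share was 47.8% (10 to 100 CPM), 50% (1 to 10 CPM) and 52.9% (under 1 CPM), beside 50.1% over all features. Libraries that did not overlap followed the same order. Between 100 and 1000 CPM, the ABA libraries lay below the MS libraries for 114 features (7.42%) and above them for 22 (1.43%), and at 1000 CPM or more for 8 (9.41%) and 0. A log2FC of 0.95 or more in size was negative for 30 of the features between 100 and 1000 CPM and for 2 of those above, and positive for 0 in either class.

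These shifts were small and depended on the scaling. With library totals alone and no TMM factor, the median over all features moved to 0.07, the negative share at 1000 CPM or more to 70.6%, and that between 100 and 1000 CPM to 40.9%. Relative to the median of all features, the median log2FC at 1000 CPM or more was -0.11 under TMM, RLE, upper quartile and library totals alike. Scaling moves all features by about the same amount, so this agreement was fixed in advance and is no test of the shift. The relative median was -0.07 without mop1-1 MS replicate 2 and -0.18 without mop1-1 MS replicate 3. For the class between 100 and 1000 CPM it was -0.02 without mop1-1 MS replicate 2 and 0.00 without mop1-1 ABA replicate 1.

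**Figure D3:**
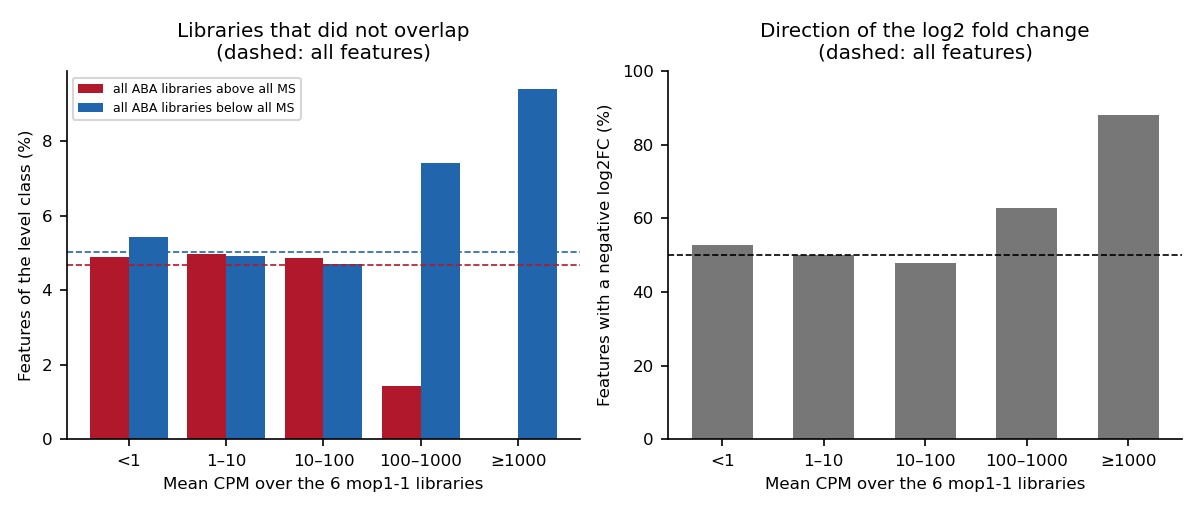
For features grouped by their mean CPM in mop1-1, the left bars give the percentage whose 3 ABA libraries all lay above (red) or below (blue) the 3 MS libraries, and the right bars the percentage with a negative log2 fold change; dashed lines are the values over all features. The 2 classes from 100 CPM upwards have more blue than red, with 9.41% against 0% at 1000 CPM and above.

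In the mutant the 1000 most abundant features of a library took 46.8%, 47.3% and 44.7% of the counts under MS and 43.8%, 44.2% and 44.1% under ABA. The 2 groups did not overlap, and the exact permutation test gave p = 0.1 (two-sided), the smallest that 3 against 3 can reach. For the 10 most abundant the means were 5.42% under MS and 5% under ABA (exact permutation p = 0.2), and for the 50 most abundant 13.4% and 12.5% (exact permutation p = 0.3). In WT the share of the 1000 most abundant ranged from 45.1% to 50.6% under MS and from 44.8% to 48.7% under ABA.

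The 50 features of highest mean level in mop1-1 (1389 to 8512 CPM) comprised 46 annotated genes and 4 assembled loci. Their log2FC was negative for 44 and positive for 6, with a median of -0.13, beside 0.02 for the same features in WT. The ABA libraries lay below the MS libraries for 6 of them and above for 0, beside 5.02% and 4.69% of all features. Only Zm00001d012420 was called. It stood at 2484, 1867 and 2152 CPM under MS and 579, 1183 and 1014 CPM under ABA (log2FC -1.23, SE 0.43). The most abundant feature of all, Zm00001d021435, stood at 8839, 9726 and 8791 CPM under MS and 6994, 8344 and 8380 CPM under ABA. Its groups did not overlap, but the log2FC of -0.21 (SE 0.18) was close to its standard error.

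Among photosynthesis genes of high level, psbs1 had a log2FC of -0.05 (SE 0.18) and fdx2, a ferredoxin that carries electrons from photosystem I, one of -0.03 (SE 0.19). For sam2, an S-adenosylmethionine synthetase, it was 0.05 (SE 0.15), and for PAL1, the phenylalanine ammonia-lyase that opens the phenylpropanoid pathway, 0.04 (SE 0.13). For ris2 (0.03), pcr1 (0.11), HMG13 (a high mobility group protein, 0.15), and the proteases ccp1 and mir3 (both -0.03) the groups overlapped as well. mir3 encodes a cysteine protease and is no microRNA gene. BX3, an enzyme of benzoxazinoid defence compounds, stood at 1259, 976 and 840 CPM under MS and 1047, 598 and 602 CPM under ABA, which overlap (log2FC -0.45, SE 0.31).

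PIP2-6, a plasma membrane aquaporin, was among the abundant genes whose groups did not overlap. Its level was 948, 1050 and 1034 CPM under MS and 573, 856 and 869 CPM under ABA. The log2FC was -0.40 (SE 0.26) and did not pass any test. In WT the level was 747 to 1820 CPM under MS and 1126 to 1177 CPM under ABA.

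Among the features called lower, the one with a known name was bip1, the HSP70-type binding protein that folds proteins in the endoplasmic reticulum. It stood at 731, 613 and 598 CPM under MS and at 215, 330 and 302 CPM under ABA, that is 647 ± 72.6 and 282 ± 59.8 CPM (SD, n = 3). Every ABA library lay below every MS library. The log2FC was -1.20 (SE 0.37), with an adjusted p of 5.4e-05 by the exact test of edgeR on the 6 libraries, 0.223 by DESeq2 and 1 by the QL test over 12. In WT, bip1 stood at 1773, 839 and 477 CPM under MS and 588, 535 and 377 CPM under ABA, which overlap (log2FC -1.04). The effect in the mutant minus that in WT was -0.16 (SE 0.52) on the log2 scale, with an unadjusted p of 0.77 in the QL test of edgeR.

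The level of the heat shock protein gene hsp22 was 966, 581 and 850 CPM under MS and 187, 462 and 336 CPM under ABA, and again the groups did not overlap. The log2FC was -1.28 (SE 0.46), and the adjusted p of 0.0509 by the exact test of edgeR on the 6 libraries missed the threshold, while DESeq2 on these libraries called it. In WT, hsp22 ranged from 529 to 2640 CPM under MS and from 985 to 1134 CPM under ABA. For hsp 17.2, a small heat shock protein, the mutant groups overlapped (278, 234 and 132 CPM under MS, 199, 70.2 and 167 CPM under ABA). The 3 protein disulfide isomerases of the list, which form disulfide bonds in the endoplasmic reticulum, had log2FC of -0.23 (pdi2), -0.15 (pdi7) and 0.13 (pdi10), all with overlapping groups. Of the 6 chaperone and heat shock genes tested, 1 was called, 5 had a negative log2FC and 2 did not overlap, with a median of -0.39 in mop1-1 and -0.45 in WT. Over all features 0.22% were called lower, 50.1% had a negative log2FC and 5.02% had all ABA libraries below the MS libraries.

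The summed level of the 58 features called lower was 14612, 11979 and 12262 CPM in mop1-1 MS and 3770, 5904 and 5563 CPM in mop1-1 ABA. In WT MS it was 43647, 22817 and 7826 CPM and in WT ABA 16627, 16370 and 16357 CPM. The rule of the call fixed that the mutant groups lay apart. The mop1-1 ABA libraries were lowest of all, and the WT MS libraries ranged from above to below every WT ABA library. WT MS replicate 1 was the highest of the 12 libraries for 48 of the 58, and WT MS replicate 3 the lowest of its group for 51. Their log2FC in WT was negative for 51 and positive for 7, with a median of -0.60 beside -1.51 in the mutant, which the rule of the call fixed. For 2 of the 58 the WT libraries did not overlap. The smallest adjusted p of the interaction was 1 among them in the QL test of edgeR, with 9 at an unadjusted p under 0.05. The interaction includes the mutant decrease by which the 58 were chosen. Of the 58, 0 were among the 35 features (0.133% of all) called lower in WT by the same exact test. At so small a share, this count says little about them. DESeq2 over 12 libraries called the interaction for 1 of the 58, Zm00001d051364, with an adjusted p of 0.00146, where 0.072% of all features were called with a positive and 0.0303% with a negative difference.

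The median BCV of the 58 was 0.234 when estimated from the 6 mutant libraries, 0.481 from the 6 WT libraries and 0.417 from all 12, beside 0.209, 0.22 and 0.209 over all tested features. The call used the spread of the 6 mutant libraries, so it favoured features with a low BCV there. Of the 58, 53 were called by DESeq2 on the 6 libraries, 4 by DESeq2 on 12 and 1 by the exact test on 12. These tests reuse the counts by which the 58 were chosen and are no independent support. Without WT MS replicate 3, the QL test over the remaining libraries called 2 features, both lower with ABA, and without WT MS replicate 1 it called 0. Leaving out 1 mutant library at a time, the exact test called 55 to 84 features lower, of which 41 to 49 were among the 58. The number called higher moved more, from 8 to 37 without mop1-1 ABA replicate 1, 34 without mop1-1 MS replicate 1 and 26 without mop1-1 MS replicate 2. Of the 8, 2 were among those called without mop1-1 ABA replicate 1 or without mop1-1 MS replicate 3, 7 without mop1-1 ABA replicate 2 and 4 without each of the other libraries.

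The 58 comprised 43 annotated genes and 15 assembled loci. Groups did not overlap for 57, which the call favours. With a median level of 63.8 CPM they included 23 features of at least 100 CPM. The features without a name and with the smallest p had groups far apart. Zm00001d046204 stood at 14.8, 14.1 and 12.2 CPM under MS and 1.74, 2.37 and 2.73 CPM under ABA (log2FC -2.58, SE 0.89). Zm00001d033872 stood at 414, 358 and 377 CPM under MS and 148, 118 and 101 CPM under ABA (log2FC -1.64, SE 0.38). It was also called by DESeq2 over 12 libraries, with an adjusted p of 0.00909. Zm00001d008841 had a log2FC of -1.92 (SE 0.49) and Zm00001d036401 one of -1.29 (SE 0.38). Among the abundant ones were Zm00001d038806 (888, 822 and 725 CPM under MS, 147, 294 and 291 CPM under ABA) and Zm00001d020898 (897, 733 and 876 CPM under MS, 213, 458 and 360 CPM under ABA). Each of these had overlapping groups in WT, where Zm00001d046204 ranged from 3.8 to 224 CPM under MS and from 68.2 to 89.3 CPM under ABA. In 2 of the 58, MSTRG.28445 and Zm00001d051364, no count was found under ABA. Under MS, MSTRG.28445 stood at 8.44, 1.93 and 0 CPM, which overlaps with ABA, and Zm00001d051364 at 4.34, 0.19 and 0.524 CPM, so replicate 1 carried most of both. Against a floor of 3 counts over the group, MSTRG.28445 was at least 177-fold lower with ABA, or 51-fold without mop1-1 MS replicate 1, and Zm00001d051364 at least 85-fold, or 18-fold without it. The median of the 58 was -1.51 also with these bounds.

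**Figure D4:**
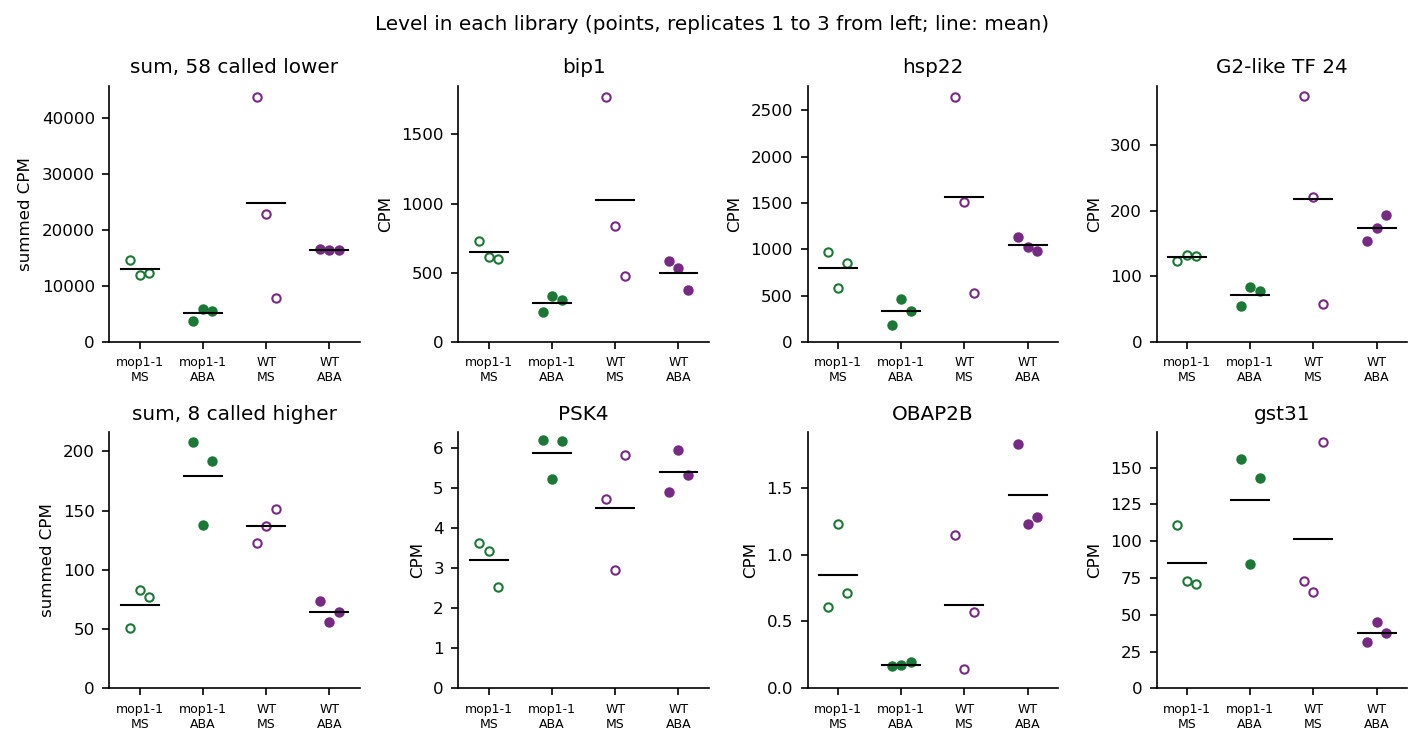
Levels in the 12 libraries for the summed features called lower and higher by the exact test on the 6 mop1-1 libraries and for 6 named genes, in CPM on axes that start at 0, with replicates 1 to 3 from left to right, filled points for ABA and a line at each mean. By the rule of the call, the mop1-1 ABA sum of the 58 (3770 to 5904 CPM) lies below the mop1-1 MS sum (11979 to 14612 CPM). WT MS ranges from 7826 to 43647 CPM.

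The 8 features called higher were 4 annotated genes and 4 assembled loci, none of them named and none above 100 CPM. Summed, they stood at 51, 83 and 77 CPM in mop1-1 MS and at 208, 138 and 192 CPM in mop1-1 ABA, a rise that the rule of the call fixed. In WT the sum went the other way, from 123, 137 and 151 CPM under MS to 74, 56 and 64 CPM under ABA. Zm00001d021168 and MSTRG.25274 made up most of this WT sum, so it describes mainly these. In WT, Zm00001d021168 stood at 50.1, 40.1 and 52.7 CPM under MS and 22.5, 18.5 and 19.7 CPM under ABA. MSTRG.25274 stood at 51.2, 47.5 and 58.8 CPM under MS and 20.4, 23.1 and 27.8 CPM under ABA. Of the 8, 6 had a negative log2FC in WT, and for 3 the WT ABA libraries lay below all WT MS libraries. The smallest adjusted p of the interaction was 0.276 among them in the QL test of edgeR, with 6 at an unadjusted p under 0.05. DESeq2 over 12 libraries called the interaction for 5 of the 8, with adjusted p from 3.1e-08 (Zm00001d048554) to 0.0362 (Zm00001d001839). Over all features, 0.072% were called with a positive difference. The interaction includes the mutant rise by which the 8 were chosen, so the choice itself raised the counts of both tests. The exact test on the 6 WT libraries called 3 of the 8 lower with ABA in WT, namely Zm00001d048554, MSTRG.25274 and Zm00001d021168, where 0.133% of all features were called lower. Zm00001d001839 rose by the exact test and by DESeq2 over 12 libraries, from 9.94, 10.8 and 8.05 CPM to 20.4, 15.8 and 19.9 CPM (log2FC 0.96, SE 0.18). In WT it was 14.7, 9.73 and 11.5 CPM under MS and 11.1, 9.88 and 9.56 CPM under ABA. MSTRG.30292 stood at 0.942, 3.56 and 1.1 CPM under MS and at 13, 13.3 and 11.1 CPM under ABA. MSTRG.22828 had 0.101, 0.0474 and 0.0676 CPM under MS, and 13.8, 12.8 and 0.388 CPM under ABA, so 2 of the 3 ABA libraries carried nearly all of its level. Zm00001d048554 had no count under MS and 2.53, 0.0499 and 0.307 CPM under ABA, mostly in replicate 1. Against a floor of 3 counts over the group it was at least 68-fold higher with ABA, or 13-fold without mop1-1 ABA replicate 1. Zm00001d000408, chosen after its values were seen, had the smallest p of the QL test, with 30 ± 1.47 CPM under MS and 51.6 ± 3.33 CPM under ABA (SD, n = 3). Its log2FC of 0.78 (SE 0.11) was under the fold threshold, and its adjusted p was 0.391 by the QL test of edgeR and 2.7e-04 by the exact test on the 6 libraries.

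The named genes other than microRNA genes followed the whole table. Of 283 tested, 132 (46.6%) had a negative log2FC, the median was 0.01, and the ABA libraries lay below the MS libraries for 15 (5.3%) and above for 19 (6.71%). None of the genes named from here on was called for the effect of ABA in mop1-1 by any test, so their values are given as levels and log2FC. Genes named with TF, Zm00001d002867, DREB 1A and some PP2C genes owe their names to a list in the paper. That list held genes differing between mop1-1 and WT under ABA at 1 h, chosen from these same libraries. Such a choice favours a gap between their mop1-1 and WT log2FC, so contrasts and medians that include them are no independent result.

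The core of ABA signalling showed no common direction. The 6 PP2C genes tested, which encode phosphatases of the family that restrains ABA signalling, had overlapping groups, 4 positive and 2 negative log2FC and a median of 0.07, beside 0.50 in WT. The values ran from -0.84 (SE 0.63) for protein phosphatase 2C A9 and -0.59 (SE 0.33) for protein phosphatase 2C 26 to 0.42 (SE 0.27) for PP2C30. Protein phosphatases 2C A5, A9, 26 and 32 came from the paper's list, so the choice favoured the gap to WT. Protein phosphatase 2C A9 stood at 6.34, 9.61 and 9.21 CPM under MS and 8.92, 3.77 and 1.37 CPM under ABA. Its effect in the mutant minus that in WT was -1.56 (SE 0.89) on the log2 scale, with an unadjusted p of 0.104 in the QL test of edgeR. The receptors PYL10 (-0.23, SE 0.15), PYL5 (-0.71, SE 0.96) and PYL3 (-0.07, SE 0.24) and the kinase SnRK2.8 (0.00, SE 0.10) had overlapping groups. ABI3-VP1 TF 28, a B3-domain transcription factor, did not overlap, with 2.51, 1.93 and 2.49 CPM under MS and 1.87, 1.42 and 1.75 CPM under ABA.

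Only 2 genes of the dehydrin and oil body list were tested, too few for a list median. Both had a negative log2FC in mop1-1, that of dhn2 being -0.16 (SE 0.28) with overlapping groups. The dehydrin gene dhn2, chosen after its values were seen, stood at 460 ± 82.8 CPM under MS and 411 ± 82.1 CPM under ABA (SD, n = 3). OBAP2B, named for oil body-associated proteins, stood at 0.605, 1.23 and 0.71 CPM under MS and 0.164, 0.175 and 0.194 CPM under ABA, a low level with groups that did not overlap (log2FC -2.24, SE 0.68). In WT it was 1.15, 0.145 and 0.571 CPM under MS and 1.83, 1.23 and 1.28 CPM under ABA, also without overlap and in the other direction. The effect in the mutant minus that in WT was -3.46 (SE 0.93) on the log2 scale, with an unadjusted p of 0.00284 and an adjusted p of 1 in the QL test of edgeR.

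Glutathione transferases conjugate glutathione to electrophiles. Of the 8 genes of glutathione metabolism and detoxification tested, 6 had a positive log2FC, with a median of 0.36 beside -0.61 in WT, and the groups of all 8 overlapped in mop1-1. The log2FC was 0.68 (SE 0.36) for gst7, 0.59 (SE 0.35) for gst31 and 0.37 (SE 0.20) for gst2. In the mutant, gst2 stood at 67.9, 68.7 and 101 CPM under MS and 105, 92.3 and 110 CPM under ABA. In WT it stood at 109, 70.6 and 90.2 CPM under MS and 42.8, 47.1 and 58.2 CPM under ABA, where every ABA library lay below every MS library. For gst31 the mutant levels were 85 ± 22.6 CPM under MS and 128 ± 38 CPM under ABA (SD, n = 3). In WT the 3 ABA libraries of gst31, at 31.3, 44.8 and 37.6 CPM, lay below all MS libraries, at 72.9, 65.3 and 167 CPM. WT MS replicate 3 was thus far above the others. The difference between the genotypes was 2.02 (SE 0.49) for gst31 and 1.24 (SE 0.28) for gst2 on the log2 scale, with unadjusted p of 0.00149 and 7.8e-04 and adjusted p of 1 and 1 in the QL test of edgeR. DESeq2 over 12 libraries called both, with adjusted p of 0.0207 and 0.0288. It also called the difference for MRP1, an ABC transporter of the list, at 1.81 (SE 0.40) with an adjusted p of 0.00897, beside 1 in the QL test of edgeR. MRP1 had a log2FC of 0.44 (SE 0.28) in mop1-1 and of -1.37 (SE 0.29) in WT. Its WT levels were 202, 205 and 302 CPM under MS and 65.7, 96.7 and 112 CPM under ABA.

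Transcription factor families were spread around 0. Of 8 AP2/ERF and DREB genes, 5 were negative (median -0.03), with log2FC of -1.73 (SE 0.63) for the AP2-EREBP factor Zm00001d002867, -2.16 (SE 1.39) for DREB 1A and 0.64 (SE 0.62) for AP2-EREBP TF 79. Zm00001d002867 stood at 0.74, 0.98 and 0.44 CPM under MS and 0.23, 0.225 and 0.194 CPM under ABA without overlap, a level below 1 CPM. Of 4 NAC genes, 3 were positive (median 0.56), with log2FC of 1.33 (SE 1.04) for NAC22, 0.52 (SE 0.41) for NAC78 and 0.59 (SE 0.37) for NAC TF 13. NAC22 and NAC78 did not overlap, with ABA higher, as was the case for 4.69% of all features. Of 8 WRKY genes, 5 were negative (median -0.18), with log2FC of -1.02 (SE 0.61) for WRKY53, -0.67 (SE 0.38) for WRKY TF 36 and 0.40 (SE 0.24) for WRKY3. For WRKY53 it was -2.11 without mop1-1 ABA replicate 1 and -0.58 without mop1-1 MS replicate 1, and for WRKY TF 36 it was -0.15 without the latter. Of 8 bZIP and bHLH genes, 6 were negative (median -0.08), with -0.43 (SE 0.28) for bHLH23 and -0.38 (SE 0.25) for bZIP116. bHLH TF 9 was the exception, with 0.151, 0.206 and 0.423 CPM under MS and 0.772, 0.649 and 1.08 CPM under ABA. Of 5 homeobox and MADS genes, 4 were negative (median -0.16), with -1.03 (SE 0.46) for MADS69, -0.45 (SE 0.66) for Homeobox TF 41 and -0.16 (SE 0.25) for HB128, all overlapping.

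The G2-like factor G2-like TF 24, which the RefSeq table also lists as the response regulator RR9, stood out among 13 MYB and trihelix genes (median 0.02). Its level was 123, 133 and 131 CPM under MS and 54.8, 83.4 and 77.8 CPM under ABA. The groups did not overlap, and the log2FC was -0.84 (SE 0.45), with an adjusted p of 0.0115 by the exact test of edgeR on the 6 libraries, though under the fold threshold. In WT it ranged from 58.4 to 374 CPM under MS and from 153 to 193 CPM under ABA. GLK44 (-0.30, SE 0.16) and MYBR43 (0.20, SE 0.16) had overlapping groups. TCP8, a TCP-domain factor, was at 15.1 ± 0.834 CPM under MS and 12.8 ± 0.206 CPM under ABA (SD, n = 3) without overlap (log2FC -0.23, SE 0.13).

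Of 13 genes of auxin, gibberellin, cytokinin and ethylene, 10 had a positive log2FC and 3 a negative one, with a median of 0.18. The member with the smallest p was G2-like TF 24, given above, which was lower with ABA without overlap (log2FC -0.84, SE 0.45). D8, a DELLA repressor of gibberellin responses, stood at 44.3, 33 and 36.3 CPM under MS and 48.6, 44.4 and 48.1 CPM under ABA. PINY, of the PIN family of auxin efflux carriers, stood at 28.9, 30.1 and 28.4 CPM under MS and 41.7, 32.4 and 33.2 CPM under ABA. In both genes every ABA library lay above every MS library. Outside this list, the named genes with the smallest p in this direction included ARGOS5 and ARGOS4, of a family that affects organ size and ethylene sensitivity. ARGOS5 stood at 2.22, 2.67 and 2.05 CPM under MS and 4.08, 3.12 and 5.9 CPM under ABA (log2FC 0.92, SE 0.32). ARGOS4 stood at 2.96, 2.62 and 1.5 CPM under MS and 4.44, 3.72 and 4.16 CPM under ABA (log2FC 0.80, SE 0.35). The phytosulfokine precursor gene PSK4, which encodes a peptide growth factor, stood at 3.63, 3.42 and 2.54 CPM under MS and 6.2, 5.22 and 6.18 CPM under ABA, and had the smallest p of the named genes (log2FC 0.88, SE 0.25, unadjusted p of 0.00459 in the QL test of edgeR). In WT its groups overlapped (log2FC 0.26). The mutant groups did not overlap, with ABA higher, for cha101 (log2FC 0.54), yabby15 (0.55), GPDH4 (0.36), TPS4 (2.19, at most 1.15 CPM) and CNR13 (0.20) either. Of these 5 genes, CNR13 was the one without overlap in WT as well, again with ABA higher.

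**Figure D5:**
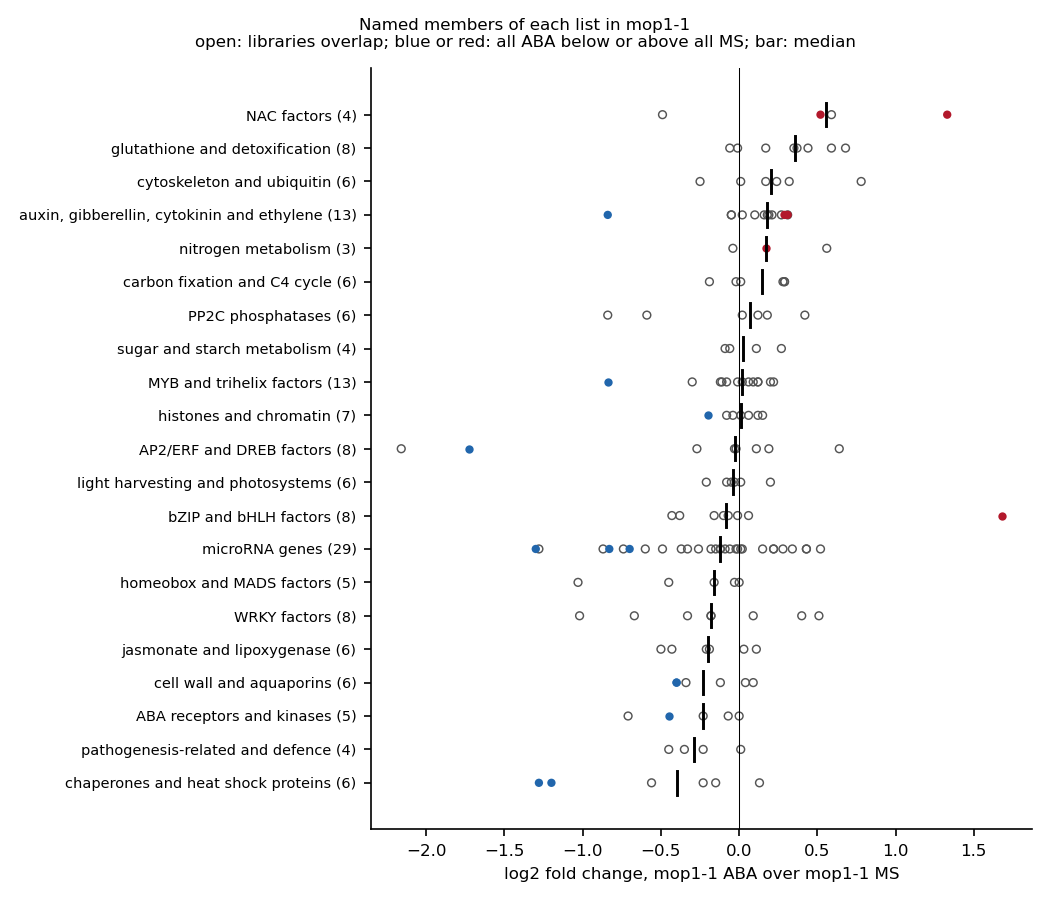
Each point is a named gene of a list with at least 3 tested members (numbers in brackets), placed by its log2 fold change of mop1-1 ABA over mop1-1 MS; open points have overlapping groups, blue and red points have all 3 ABA libraries below or above the 3 MS libraries, and the bar is the median of the list. The chaperone list has the lowest median (-0.39) and the 4 NAC genes the highest (0.56).

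The lists of photosynthesis, carbon, sugar, nitrogen and cytoskeleton genes had medians of at most 0.20 in size, with single genes further from 0. Light harvesting and photosystem genes (6 tested) had a median of -0.04, with psad1 at -0.08 (SE 0.18), FDX6 at -0.21 (SE 0.36) and PSA3 at 0.20 (SE 0.22). Carbon fixation and C4 genes (6 tested) had a median of 0.15, with PPDK2 at -0.19 (SE 0.17), PPCK2 at 0.28 (SE 0.27) and PPCK4 at 0.29 (SE 0.36), the PPCK genes encoding kinases of phosphoenolpyruvate carboxylase. Sugar and starch genes (4 tested) had a median of 0.02, with Agp2 at 0.27 (SE 0.22), bt2 at -0.09 (SE 0.16) and sps1, a sucrose phosphate synthase, at 0.11 (SE 0.28). In nitrogen metabolism, asn1, an asparagine synthetase, stood at 73.3, 74 and 72.8 CPM under MS and 77.4, 86.9 and 83.6 CPM under ABA without overlap, while NAR (0.56, SE 0.42) and gln1 (-0.04, SE 0.14) overlapped. Among 6 cytoskeleton genes (median 0.20), tua5, an alpha tubulin, stood at 122, 67.8 and 68.9 CPM under MS and 109, 133 and 201 CPM under ABA. Its groups overlapped, and its log2FC was 0.78 (SE 0.30). The log2FC was 0.24 (SE 0.16) for tub5 and -0.25 (SE 0.20) for act1.

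In the cell wall and aquaporin list (6 tested, median -0.23), Bm6 stood at 57.8, 47 and 48.9 CPM under MS and 44.6, 32 and 39.8 CPM under ABA (log2FC -0.40, SE 0.14). Its groups overlapped in neither genotype, with ABA lower in both. NIP3-1 was at -0.34 (SE 0.40). Among 7 histone and chromatin genes (median 0.01), the RNA-dependent RNA polymerase gene rdr6, which makes the double-stranded precursors of trans-acting small RNAs, stood at 31.9, 33 and 32.5 CPM under MS and 27.2, 27.5 and 30.3 CPM under ABA without overlap. That is a log2FC of -0.20 (SE 0.09), beside -0.06 in WT. HDT1, a plant-specific histone deacetylase, was at 0.12 (SE 0.17). Jasmonate genes (6 tested) had a median of -0.20, with ZIM TF 16 at -0.43 (SE 0.35), TIFY20 at -0.50 (SE 0.54) and the allene oxide synthase gene aos2 at -0.19 (SE 0.27). Defence genes (4 tested) had a median of -0.29, with bx1, which opens the benzoxazinoid pathway, at -0.35 (SE 0.56) and the chitinase gene chn1 at -0.23 (SE 0.49).

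Of the 29 microRNA genes tested, 19 had a negative log2FC and 10 a positive one, with a median of -0.12 beside -0.29 in WT. For 3 (10.3%) the ABA libraries lay below the MS libraries and for 0 above, beside 5.02% and 4.69% of all features. Their polyadenylated transcripts are precursors, and mature microRNAs were not measured by these libraries. Both of the smallest p belonged to the MIR169 family, whose mature forms target NF-YA transcription factors. MIR169e stood at 16.2, 16.4 and 20.1 CPM under MS and 7.46, 13.3 and 8.94 CPM under ABA (log2FC -0.83, SE 0.35). MIR169c stood at 1.51, 2.34 and 4.65 CPM under MS and 0.838, 1.32 and 1.29 CPM under ABA (log2FC -1.30, SE 0.54). MIR162 was at -0.87 (SE 0.45) with overlapping groups. In WT the groups of both MIR169 genes overlapped.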

How the data were processed

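The data were the gene counts of 12 libraries that the authors deposited in 1 table, whole numbers that had not been normalized. According to the methods and the submitters' processing notes, the authors checked paired reads of 150 bp with fastp 0.21.0, trimmed them, mapped them to B73 version 4 with HISAT2 2.2.1, and assembled and counted them with StringTie 2.1.4. Such counts derive from coverage, so their sum is not a number of reads, and reads of overlapping or near-identical genes can be split between them. Groups came from the sample labels, with 3 biological replicates each.

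Features with at least 0.58 CPM in 3 libraries were fitted with edgeR 4.0.16 (R 4.3.3): TMM normalization, 4 group means, the quasi-likelihood test, and Benjamini-Hochberg adjustment over all 26401 features. The standard error of a log2FC was its size over the square root of the F statistic. Alternatives were other scaling (RLE, upper quartile, library totals), other filters (none, filterByExpr), other tests (DESeq2 1.42.0, the edgeR exact test), fits on the 6 libraries, on annotated genes, without a fold threshold, with the replicate number as a block, and without each library in turn. Scripts were tested on simulated data. 0 columns of per-sample values were left unused.

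Gene names came from the study's text and from RefSeq (Zm-B73-REFERENCE-NAM-5.0), matched through older identifiers for 2103 features, and 47 features with several matches were left unnamed. Lists were regular expressions on symbols. 15 hits through clone names or through symbols of other gene families were removed by name after the lists had been read. Named were the 10 named genes of smallest p in each direction without overlap, the 12 most abundant, up to 3 per list of at least 3 members, every named gene called, and, of the called features without a name, 4 of smallest p in each direction and 4 most abundant. Other features named were chosen after their values were seen. Comparison, members and lists were chosen with earlier results of these data known. The mop1 gene is not analysed here. Tables of the authors' own comparisons were not used. No sequence is shown, and the planned search of promoters for motifs was not run.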

Additional observations from a re-analysis of the deposited data

How the results depend on the processing

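The count of differentially expressed features in mop1-1 was 0 under RLE, upper quartile and library totals, with no filter, filterByExpr, no fold threshold, annotated genes alone, and the QL test on the 6 libraries. It was 13 with DESeq2 and 1 with the exact test over 12 libraries, and 79 and 66 with these tests on the 6 libraries. Leaving out 1 library gave 0 to 2 with the QL test, the 2 without WT MS replicate 3, both lower with ABA, and 108, 96, 63, 90, 101 and 74 with the exact test on the mutant libraries, in this order without ABA replicates 1, 2 and 3 and MS replicates 1, 2 and 3. In WT, where the QL count was 0, it was 1 on the 6 libraries, 68 with DESeq2, 42 with the exact test, 75 and 50 with these on the 6 libraries, and 0 to 7 with 1 library left out, the 7 without WT ABA replicate 3. The interaction gave 0 with the QL test, 27 with DESeq2 and 0 to 2 with 1 library left out, the 2 without WT ABA replicate 3 or mop1-1 MS replicate 3. The cause of these differences was not tested.

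The median log2FC in mop1-1, 0.00 over all features, was -0.01 under RLE, DESeq2, the QL test on the 6 libraries and the exact test on them, 0.07 with library totals only, and -0.01 to 0.01 with 1 library left out. At 1000 CPM or more it was -0.17 to -0.06 with 1 library left out.

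Of 2080 alternative log2FC of the 87 named features, 2052 kept their sign, and 48 of the 87 moved by over 1.5 times when 1 library was left out. The others belong to the genes that follow. With library totals only, gln1 came to 0.03, psbs1 to 0.02, fdx2 to 0.03, and mir3 and ccp1 to 0.04. With 1 library left out the range was -0.04 to 0.41 for Agp2, -0.06 to 0.43 for PSA3, -1.63 to 0.21 for PYL5, -0.35 to 0.12 for aos2, -0.45 to 0.10 for HB128, -0.19 to 0.04 for bt2, -0.51 to 0.07 for FDX6, -0.66 to 0.59 for chn1, -0.18 to 0.07 for psad1, -0.02 to 0.16 for sam2, -0.08 to 0.01 for gln1, -0.14 to 0.05 for psbs1, -0.04 to 0.16 for PAL1, -0.13 to 0.09 for fdx2, -0.09 to 0.17 for ris2, -0.16 to 0.12 for mir3 and -0.10 to 0.09 for ccp1.

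Same-numbered MS and ABA libraries showed no shared deviation (r of -0.098 to 0.094 over features). Pairs with other numbers ranged from -0.237 to 0.203, so this measure cannot decide whether the samples were paired. The replicate block gave 0 features in mop1-1, 0 in WT and 0 for the interaction. Counts of features under 1 CPM carry the largest spread, which limits what could be detected there.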
